A study of Saccharomyces cerevisiae with 12 samples.

Results

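Yeast cells of the double mutant mex67-5 xpo1-1 were compared between their cytoplasm and their total lysate. Of the 12 libraries of the RNA-seq series, 6 belonged to this mutant. They were 3 cytoplasmic libraries (mex67-5 xpo1-1 cytoplasm) and 3 libraries of whole cells (mex67-5 xpo1-1 total), and were chosen by their labels alone. The other 6, wild type cytoplasm and wild type total with 3 libraries each, were used to ask whether the ratio between the fractions differed between the strains. Before lysis all cells had spent 1 h at 37 °C. In the mutant the chromosomal MEX67 and XPO1 genes were replaced by HIS3 and TRP1 markers, and the cells carried the temperature-sensitive alleles mex67-5 and xpo1-1 on plasmids. Both strains were labelled as BY4741, a haploid laboratory strain, and the wild type carries neither allele. Every group of cells was turned into spheroplasts by removal of the cell wall. The cytoplasmic fraction was the supernatant after gentle lysis and a slow spin.

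Mex67, together with Mtr2, is the main export receptor of mRNA in Saccharomyces cerevisiae and carries ribonucleoprotein particles through the nuclear pore. Xpo1, also called Crm1, is the karyopherin that exports proteins with a leucine-rich signal, and it also takes part in the export of pre-ribosomal subunits and of some non-coding RNAs. At the temperature used here the mex67-5 and xpo1-1 proteins no longer work, so the comparison asks which RNAs were found in the cytoplasm, relative to the whole cell, when both receptors were blocked. The counts did not separate RNA made before the shift from RNA made after it. They are shares of a library, so that fewer cells with an RNA and less of it per cell cannot be told apart. Where a value is given in CPM, it is a count scaled to the library's size with TMM factors, and all fold changes are log2 values of cytoplasm over total.

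The counts of a transcript lay mainly on the feature annotated on the strand opposite to it. For 885 mRNAs an opposite-strand feature existed that met no further gene, and in 796 of these it held the higher count per base (median log2 ratio 4.04). The mRNA of the glyceraldehyde-3-phosphate dehydrogenase TDH3 had 585 counts on its own feature and 1315951 on the opposite one, summed over the 6 mutant libraries. Therefore, an mRNA was read from the opposite-strand feature, provided that it covered at least 0.5 of the gene, had at least 0.8 of its length inside it and met no other gene. This held for 2507 of 6692 annotated mRNAs, of which 2352 were tested and 155 had too few counts. The antisense RNA of a gene was read from the feature that bears the gene's own name, where no other gene lay on the opposite strand. The library kit is labelled as not stranded, and how strand was set in the counting is not given in the sources used here.

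The cytoplasmic libraries held 24532091 to 28433114 counts and the total libraries 32754083 to 35396033. Replicates ranked features alike, with Spearman correlations between 0.988 and 0.995 within a group. Mitochondrial transcripts took 3.31 to 6.41% of the counts in the mutant cytoplasm and 9.47 to 14.3% in mutant total, with the lowest share in cytoplasm replicate 3. Intergenic features took 0.496 to 0.758% of the counts in the mutant cytoplasm and 0.265 to 0.358% in mutant total. In the mutant, the MEX67 mRNA had 348, 331 and 326 CPM in the cytoplasm and 324, 363 and 343 CPM in total, and thus did not differ between the fractions (log2 fold change −0.03 ± 0.13 (SE), adjusted p = 0.832 by edgeR's quasi-likelihood test). The XPO1 mRNA, annotated as CRM1, had 498, 578 and 502 CPM in the cytoplasm and 500, 697 and 588 CPM in total (−0.18 ± 0.17, adjusted p = 0.377). Since plasmids supply the mutant alleles, these levels do not check the genotype.

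Some markers of the strains went against the labels. BY4741 has the mating type MATa. The study's strain list, as read here, prints MATa for the mutant as well. It prints MATa/MATa even for a diploid that was sporulated, so that an alpha sign may have been lost in it. MATa cells are known to make the receptor STE2 and not the a-factor receptor STE3 or the pheromone MF(ALPHA)1. STE3 had 103, 141 and 124 CPM in mutant total and 269, 265 and 305 CPM in wild type total. MF(ALPHA)1 had 194, 258 and 168 CPM in mutant total and 300, 322 and 295 CPM in wild type total. STE2 had 9.2, 7.51 and 8.73 CPM in mutant total and 2.89, 3.44 and 3.39 CPM in wild type total. Both strains thus held mRNAs that are known to be specific to alpha cells. TRP1, the marker used in the mutant, had 107, 104 and 93.0 CPM in mutant total and 23.4, 23.3 and 21 CPM in wild type total, in which the values did not overlap. BY4741 also lacks LEU2 and MET17 (MET15), yet both had counts in wild type. LEU2 had 182 to 282 CPM in mutant total and 23.9 to 29.8 CPM in wild type total, and MET17 had 164 to 229 CPM in mutant total and 41.1 to 114 CPM in wild type total. Wild type here thus means the libraries labelled so. The part of these differences in the comparison between the strains was not tested.

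RNAs that stay in the nucleus show what the fractionation separated. Small nucleolar RNAs guide the modification and processing of ribosomal RNA. Those of the C/D class carry a C box near the 5′ end and a D box near the 3′ end, and those of the H/ACA class end in an ACA triplet. In the following sequences from RefSeq (build R64) capitals mark the C box TGATGA (first 20 bases) and the D box CTGA (last 15 bases) in the C/D snoRNA, and the ACA triplet (last 10 bases) in the H/ACA snoRNAs, all searched on the RNA's own strand. Motifs of the other class are left in lower case, although the last bases of SNR63 also hold ACA and those of SNR189 also CTGA. They are shown because SNR63, SNR189 and SNR33 were among the most depleted RNAs in the cytoplasm, while SNR8 was not depleted. SNR63 lies at chrIV:323217-323471 (minus strand), SNR189 at chrIII:178610-178798 (minus strand), SNR33 at chrIII:142364-142546 (minus strand) and SNR8 at chrXV:832332-832521 (plus strand).
SNR63: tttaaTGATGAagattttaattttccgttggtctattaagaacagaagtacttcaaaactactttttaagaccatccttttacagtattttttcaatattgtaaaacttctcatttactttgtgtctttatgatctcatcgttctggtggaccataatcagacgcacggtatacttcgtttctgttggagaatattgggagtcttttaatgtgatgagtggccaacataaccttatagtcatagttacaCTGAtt
SNR189: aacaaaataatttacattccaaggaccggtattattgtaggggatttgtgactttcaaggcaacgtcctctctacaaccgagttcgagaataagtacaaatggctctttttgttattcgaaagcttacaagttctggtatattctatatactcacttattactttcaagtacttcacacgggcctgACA
SNR33: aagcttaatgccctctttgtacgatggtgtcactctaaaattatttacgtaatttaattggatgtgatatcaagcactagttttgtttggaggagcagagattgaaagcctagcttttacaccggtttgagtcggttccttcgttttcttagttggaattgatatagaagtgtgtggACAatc
SNR8: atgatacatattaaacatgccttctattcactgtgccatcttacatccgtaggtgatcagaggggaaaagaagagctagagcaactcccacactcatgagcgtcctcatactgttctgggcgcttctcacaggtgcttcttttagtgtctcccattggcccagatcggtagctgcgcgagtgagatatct
Of the 45 C/D snoRNAs in RefSeq, 36 had the C box motif and 43 the D box motif in these windows, and 18 of the 29 H/ACA snoRNAs had the ACA triplet, as had 5 of the C/D snoRNAs. In SNR8 the triplet was not found in the last 10 bases of the annotated sequence, whose ends can differ from those of the RNA.

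The nuclear RNAs were strongly depleted from the mutant cytoplasm. Of the 20 snoRNAs and snRNAs that could be read by strand and tested, 17 were lower in the cytoplasm (85.0%) and 0 higher by edgeR (0 also at an unadjusted p under 0.05 and by DESeq2), whereas 28.7% of all 13763 tested features were lower and 30.0% higher. Their median log2 fold change was −2.17. NME1, the RNA of RNase MRP, which cleaves pre-ribosomal RNA, had 59.3, 69.3 and 39.9 CPM in the mutant cytoplasm and 1250, 988 and 1050 CPM in mutant total (−4.28 ± 0.24, adjusted p = 3.2e-05). SNR63, the C/D snoRNA shown above, had 16.1, 31.9 and 18.0 CPM in the cytoplasm and 515, 346 and 397 CPM in total (−4.25 ± 0.29, adjusted p = 5.5e-05). SNR30, an H/ACA snoRNA needed for the processing of the small subunit RNA, had 481, 395 and 427 CPM in the cytoplasm and 5810, 6060 and 5530 CPM in total (−3.74 ± 0.21). For each of them the cytoplasmic libraries lay far below all total libraries.

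SNR189 and SNR33, which carry the ACA triplet near their 3′ end, behaved in the same way. SNR189 had 9.27, 9.40 and 5.81 CPM in the mutant cytoplasm and 105, 96.7 and 90.3 CPM in mutant total (−3.57 ± 0.19). SNR33 had 22.8, 33.8 and 17.8 CPM in the cytoplasm and 298, 299 and 221 CPM in total (−3.46 ± 0.25). SNR8, of the same class, overlapped between the fractions, with 182, 240 and 191 CPM in the cytoplasm and 283, 248 and 183 CPM in total (−0.22 ± 0.18, adjusted p = 0.331). By class, 9 of 11 tested C/D snoRNAs were lower in the cytoplasm with a median of −1.84, and 5 of 6 tested H/ACA snoRNAs with a median of −2.83. SNR40 and SNR47, both of the C/D class, did not pass the test (−1.13, adjusted p = 0.205, and −1.31, adjusted p = 0.228), and their cytoplasm replicate 3 lay at 2.01 and 1.98 CPM while the other cytoplasmic libraries held 11.9 to 25.8 CPM.

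Other non-coding RNAs were lower in the mutant cytoplasm as well. RPR1, the RNA of RNase P, had 171, 164 and 143 CPM in the mutant cytoplasm and 1270, 1140 and 974 CPM in mutant total (−2.82 ± 0.17). TLC1, the telomerase RNA, which shuttles through the cytoplasm and for which export by Mex67 and Xpo1 is known, had 107, 114 and 113 CPM in the cytoplasm and 464, 440 and 316 CPM in total (−1.87 ± 0.17, adjusted p = 0.000104). In wild type TLC1 was lower in the cytoplasm as well (−1.25), and the difference between the strains did not pass the test (−0.56, adjusted p = 0.127). Some further RNAs share their feature with another gene and were added after their values were seen. The spliceosomal RNA LSR1 (−2.17), the U5 gene SNR7-L (−3.84) and SCR1 (−1.59), the RNA of the signal recognition particle, which works in the cytoplasm, were all lower in the cytoplasm.

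The depletion was seen in wild type too. There 14 of 19 snoRNAs and snRNAs were lower in the cytoplasm and 0 higher (15 and 0 at an unadjusted p under 0.05), with a median of −1.13, against 39.8% of all 11976 features called, 22.3% higher and 17.6% lower. When the cytoplasm to total ratio was compared between the strains, 0 of 19 passed edgeR's test in either direction (at an unadjusted p under 0.05, 0 were higher and 5 lower), with a median difference of −0.84, beside 10.2% of all 13145 features called, 4.57% higher and 5.68% lower.

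Mitochondrial transcripts, which are made and used inside the organelle, were also lower in the mutant cytoplasm. The large ribosomal RNA 21S_RRNA had 33300, 34100 and 23900 CPM in the cytoplasm and 113000, 82200 and 66300 CPM in total (−1.52 ± 0.36, adjusted p = 0.00633). COX1, a subunit of cytochrome c oxidase, had 4680, 4810 and 2490 CPM in the cytoplasm and 26600, 13600 and 16200 CPM in total (−2.24 ± 0.37). The groups did not overlap for either RNA. The other subunits COX2 (−1.13) and COX3 (−1.87) and the ATP synthase subunit OLI1 (−1.35) fell as well. COB (−2.01, adjusted p = 0.0319) and ATP6 (−2.92, adjusted p = 0.0209) passed the test, but their libraries overlapped between the fractions. The small ribosomal RNA 15S_RRNA (−1.35, adjusted p = 0.0560) and VAR1 (−0.70, adjusted p = 0.0501), a mitochondrial ribosomal protein, did not pass. Of the 5 mitochondrially encoded mRNAs that met the strand rule, 4 were lower and 0 higher (5 and 0 by DESeq2 and at an unadjusted p under 0.05). Cytoplasm replicate 3 was the lowest for 21S_RRNA, COX1, COX2, COX3 and OLI1. In wild type 21S_RRNA (−1.15) and COX1 (−1.58) were lower as well. There 4 of 4 tested mRNAs of the list were lower and 0 higher (median −0.94), also at an unadjusted p under 0.05. Over all mRNAs 21% were lower and 21% higher in wild type. Between the strains the ratio differed for 0 of 5 mRNAs by edgeR's test (0 higher and 1 lower at an unadjusted p under 0.05). It was higher in the mutant for 3.73% and lower for 9.42% of all mRNAs.

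**Figure D1:**
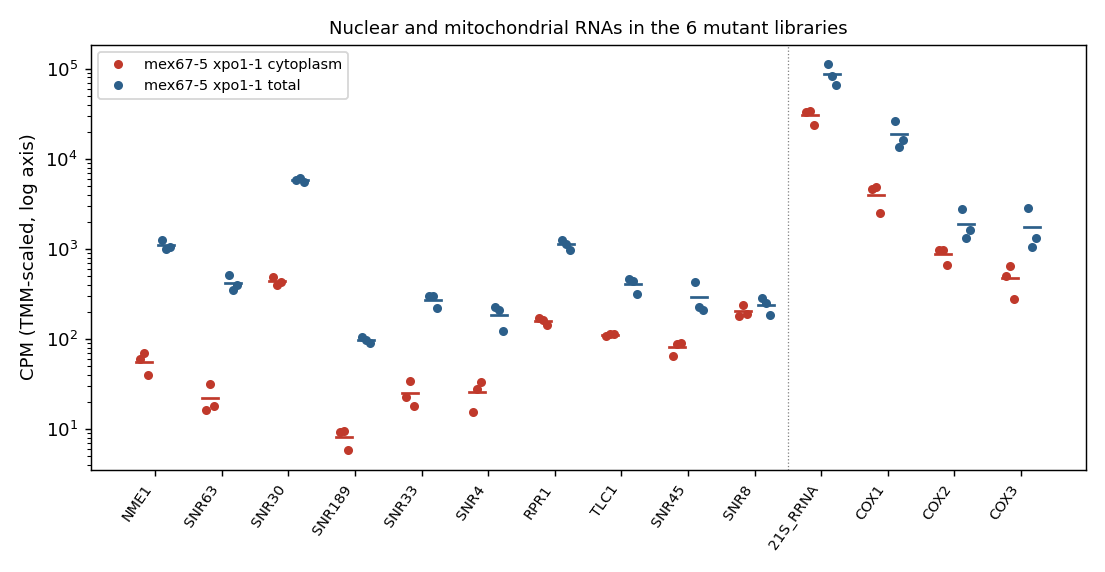
CPM (TMM-scaled, log axis) of 10 nuclear RNAs (left of the dotted line) and 4 mitochondrial RNAs (right) in each of the 3 mutant cytoplasm libraries (red) and the 3 mutant total libraries (blue), with the mean as a bar. SNR63 lay at 16.1 to 31.9 CPM in the cytoplasm and 346 to 515 CPM in total, and SNR8 overlapped between the fractions.

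Among the mRNAs more were depleted from the cytoplasm than enriched in it. Of 2352 tested mRNAs 414 (17.6%) were higher in the mutant cytoplasm and 1016 (43.2%) lower, with a median log2 fold change of −0.28 and quartiles of −0.66 and 0.18. The libraries of the fractions did not overlap for 69.1% of the mRNAs, and for 65.6% of all features. The median log2 CPM per library was 5.14, 5.07 and 5.21 in the cytoplasm and 5.27, 5.36 and 5.32 in total, a difference of −0.18 that was larger than the spread (p = 0.1 in a two-sided exact permutation test, where 3 against 3 libraries allow no smaller value). These splits depended on how the libraries were scaled. With library totals in place of TMM, which raised the median of all features by 0.50, 40.3% of the mRNAs were higher and 10.9% lower. With TMM factors from the mRNAs alone 29.9% were higher and 27.4% lower, and with scaling to mitochondrial transcripts, which raised the median by 1.61, 78.2% were higher and 0.0425% lower. The directions given for mRNAs and lists are therefore relative to the median feature, and what is compared is their order. In wild type 485 of 2312 mRNAs (21%) were higher and 485 (21%) lower, with a median of −0.02.

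The mRNAs kept much of their wild type order. Across 2303 mRNAs tested in both strains, the fold changes of the mutant and of wild type had a Spearman correlation of 0.68, as a description over genes that share their libraries and their depth. The ratio was lower in the mutant than in wild type for 220 of 2335 mRNAs (9.42%) and higher for 87 (3.73%), with a median difference of −0.20.

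The mRNAs with the largest increases included genes of regulation, the peroxisome and the cell wall. YHR177W, a homologue of fungal WOPR-domain regulators, had 210, 243 and 135 CPM in the mutant cytoplasm and 21.2, 22.6 and 32.3 CPM in mutant total (2.95 ± 0.25, adjusted p = 8.7e-05). STB5, a zinc cluster transcription factor of the response to oxidative stress, had 108, 121 and 107 CPM in the cytoplasm and 21.8, 25.4 and 26.9 CPM in total (2.18 ± 0.13, adjusted p = 3.7e-05). Both were clearly separated between the fractions. ECM8, a gene without a settled function, had 18.7, 19.4 and 17.3 CPM in the cytoplasm and 1.9, 2.14 and 3.48 CPM in total (2.87 ± 0.22). CTA1, the catalase of the peroxisome, had 102, 114 and 144 CPM in the cytoplasm and 26.5, 23.4 and 29.4 CPM in total (2.18 ± 0.16). DAK2, a dihydroxyacetone kinase, had 72.2, 64.2 and 45.5 CPM in the cytoplasm and 12.6, 10.6 and 11.4 CPM in total (2.39 ± 0.18).

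Cell surface genes stood in the same group. MTL1, a sensor of cell wall stress, had 86.3, 89.5 and 58.2 CPM in the mutant cytoplasm and 15, 18.9 and 14.5 CPM in mutant total (2.28 ± 0.19). MUC1, also called FLO11, encodes a flocculin of the cell surface and had 15.9, 14.2 and 15.4 CPM in the cytoplasm and 2.51, 5.14 and 4.03 CPM in total (1.96 ± 0.23). The remaining ones of the 12 largest increases were YMR317W (2.36), the meiotic gene SLZ1 (2.10), the transporter-like YOR378W (2.06), SLS1 (2.02), which acts in mitochondrial gene expression, and ECI1 (1.79), an isomerase of fatty acid oxidation in the peroxisome. Of the 12, 10 were also higher in the wild type cytoplasm, for example ECM8 (2.78), MTL1 (2.61), SLS1 (1.96), MUC1 (1.95) and CTA1 (1.73). ECI1 (−0.24) and SLZ1 (−0.09) did not pass the test there, and for both the ratio was higher in the mutant than in wild type (difference 2.10, adjusted p = 0.00318, and 2.25, adjusted p = 0.0189).

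The largest decreases included factors of ribosome assembly. LOC1, a nucleolar protein with roles in pre-ribosome assembly and in ASH1 mRNA localization, had 8.81, 6.36 and 10 CPM in the mutant cytoplasm and 25.9, 22.1 and 22.1 CPM in mutant total (−1.48 ± 0.17, adjusted p = 0.000236). HAS1, a helicase of both subunits' assembly, had 23.1, 16.3 and 24.8 CPM in the cytoplasm and 58.7, 53.7 and 63.1 CPM in total (−1.45 ± 0.16). BRX1 (−1.46) and the helicase SPB4 (−1.40), both of the large subunit's assembly, fell to a similar extent. The largest of these decreases was that of GLC3, the glycogen branching enzyme, with 101, 119 and 150 CPM in the cytoplasm and 384, 682 and 419 CPM in total (−2.01 ± 0.25, adjusted p = 0.000293). FRE1, a ferric and cupric reductase of the plasma membrane, had 38.4, 31.1 and 89.0 CPM in the cytoplasm and 123, 131 and 283 CPM in total (−1.76 ± 0.43), so that replicate 3 was the highest of each fraction. The others were the mitochondrial COX3 (−1.87), YIL014C-A (−1.59), the drug transporter AZR1 (−1.58), the D-aminoacyl-tRNA deacylase DTD1 (−1.49), the IMP dehydrogenase IMD3 (−1.43) and YNR034W-A (−1.40). Most of these mRNAs were also lower in the wild type cytoplasm, for example YNR034W-A (−2.14), GLC3 (−1.49) and LOC1 (−1.11). Only HAS1 (−0.47, adjusted p = 0.147) and SPB4 (−0.50, adjusted p = 0.0669) did not pass there. The ratio did not differ between the strains by edgeR's test for any of them. SPB4 (difference −0.85, adjusted p = 0.0683) and HAS1 (−0.92, adjusted p = 0.0809) came nearest.

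**Figure D2:**
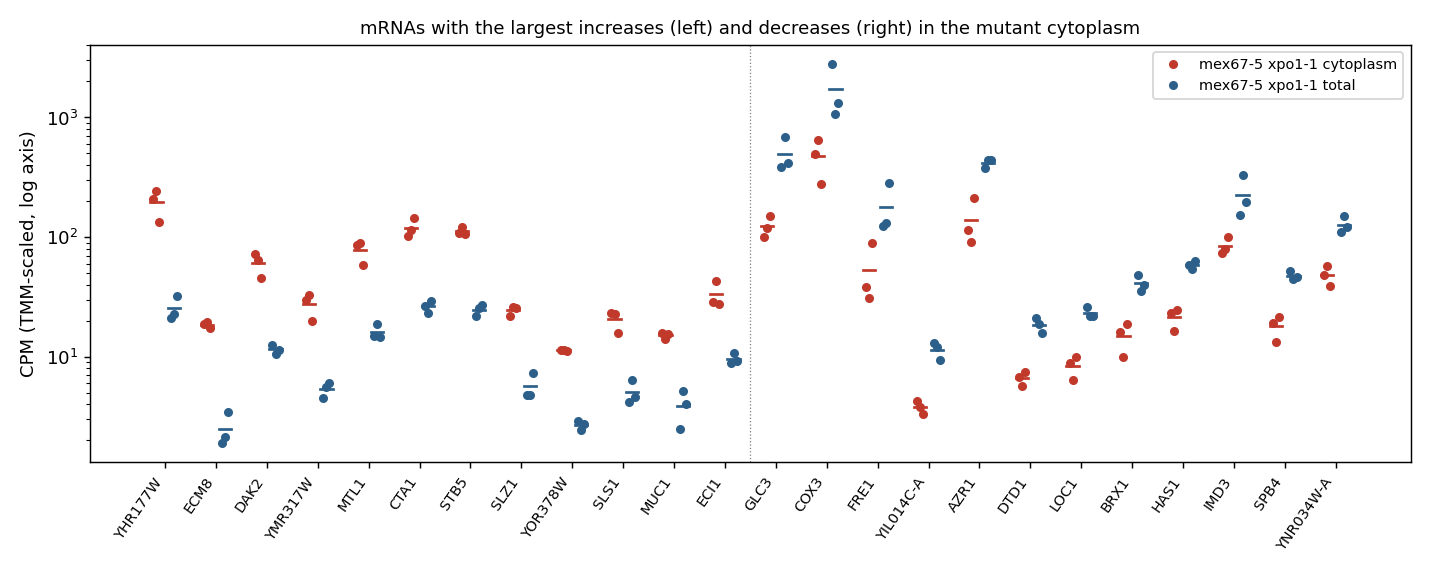
CPM (TMM-scaled, log axis) of the 12 mRNAs with the largest increases (left of the dotted line) and the 12 with the largest decreases (right) in the 3 mutant cytoplasm libraries (red) and the 3 mutant total libraries (blue), with the mean as a bar. YHR177W lay at 135 to 243 CPM in the cytoplasm and 21.2 to 32.3 CPM in total, and LOC1 at 6.36 to 10 CPM in the cytoplasm and 22.1 to 25.9 CPM in total.

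Among the most abundant mRNAs were many of glycolytic enzymes. By RPKM, which corrects for length, the highest in mutant total were TDH3, CDC19, FBA1, PGK1, ADH1, GPM1, RPS31 and OLI1. TDH3 had 5470, 5890 and 7980 CPM in the mutant cytoplasm and 7240, 10600 and 6970 CPM in mutant total (−0.36 ± 0.27, adjusted p = 0.270). CDC19 (−0.16), FBA1 (−0.54), PGK1 (−0.30) and ADH1 (−0.56) did not pass the test either. The phosphoglycerate mutase GPM1 fell by 0.79 (adjusted p = 0.0198) and the ubiquitin and ribosomal protein fusion RPS31 fell by 1.06 (adjusted p = 0.00476), as did the mitochondrial OLI1 by 1.35 (adjusted p = 0.00747). Of the 21 mRNAs of glycolysis and ethanol metabolism 0 were higher (0 at an unadjusted p under 0.05 and by DESeq2) and 5 lower (8 by DESeq2), with a median of −0.31, beside 43.2% lower among all mRNAs and 71.5% in the quintile with the highest RPKM.

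The genes for making ribosomes were for the most part lower in the mutant cytoplasm. Of 64 mRNAs of cytosolic ribosomal proteins 61 were lower and 0 higher (1 at an unadjusted p under 0.05, 0 by DESeq2), with a median of −0.89, beside 43.2% lower and −0.28 over all mRNAs. Values ranged from −1.18 for RPL23B to 0.42 for RPL35A, which did not pass the test. RPL23B had 79.8, 65.5 and 121 CPM in the cytoplasm and 228, 216 and 161 CPM in total. Many of these genes have a near-identical paralog, so their reads may be split between the copies. The list behaved alike with and without introns, as 42 of 44 mRNAs with an intron were lower with a median of −0.85 and 19 of 20 without an intron with a median of −0.91. In wild type 32 of the 64 were lower with a median of −0.42. For 0 of the 64 did the ratio differ between the strains by edgeR's test (0 higher and 6 lower at an unadjusted p under 0.05). Over all mRNAs it was higher in the mutant for 3.73% and lower for 9.42%. The median difference was −0.39 for the list and −0.20 for all mRNAs.

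Ribosome assembly factors and the translation machinery went the same way. Of 63 assembly factors 53 were lower and 2 higher, with a median of −0.84, beside 43.2% lower and 17.6% higher among all mRNAs. Here NOP1, the methyltransferase of C/D snoRNA particles, had 49.9, 39.9 and 77.3 CPM in the mutant cytoplasm and 131, 117 and 148 CPM in mutant total (−1.24 ± 0.23, adjusted p = 0.00170). FAF1, which acts in small subunit maturation, was an exception with 35.3, 33 and 30.0 CPM in the cytoplasm and 16.3, 13.6 and 18.3 CPM in total (1.03 ± 0.14). Of 13 translation factors 9 were lower and 2 higher with a median of −0.98. YEF3, the essential elongation factor 3, had 1650, 1310 and 2270 CPM in the cytoplasm and 3500, 3680 and 4060 CPM in total (−1.11 ± 0.23), whereas its paralog HEF3 had 40.6, 41.3 and 46.7 CPM in the cytoplasm and 19.7, 23.9 and 26.9 CPM in total (0.87 ± 0.14). In wild type the medians were −0.30 for assembly factors, −0.38 for translation factors and −0.02 for all mRNAs. The ratio was lower in the mutant than in wild type for 2 assembly factors and higher for 2. For translation factors it was lower for 2 and higher for 1. Over all mRNAs it was lower for 9.42% and higher for 3.73%.

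Genes that supply these processes had medians below that of all mRNAs (−0.28), of which 43.2% were lower and 17.6% higher. Among RNA polymerase, general transcription factor and mediator genes 29 of 57 were lower and 5 higher with a median of −0.35, close to all mRNAs. The large subunits of RNA polymerase I, RPA190 and RPA135, at the low end of this list, fell by 1.30 and 1.35 on the log2 scale. Of 20 mRNAs of purine and pyrimidine synthesis 12 were lower and 1 higher with a median of −0.93, of 27 of tRNA modification 21 were lower and 2 higher with a median of −0.68, and of 21 aminoacyl-tRNA synthetases 12 were lower and 1 higher with a median of −0.52. The exception in nucleotide synthesis was RNR3, a ribonucleotide reductase subunit known to be induced by DNA damage, which had 88.1, 93.0 and 95.5 CPM in the mutant cytoplasm and 29.6, 28.2 and 37.3 CPM in mutant total (1.54 ± 0.13). All 3 core histone mRNAs that were tested fell, namely HTB1 (−0.86), HHT2 (−0.69) and HTA1 (−0.56). In wild type the medians were −0.16 for the transcription list, −0.54 for nucleotide synthesis, −0.32 for tRNA modification and −0.35 for the synthetases. In this order, 3, 0, 1 and 0 members had a lower ratio in the mutant than in wild type (10, 3, 5 and 4 without adjustment). A higher one was found for 1, 1, 2 and 0 (3, 2, 3 and 1 without adjustment), beside 9.42% lower and 3.73% higher of all mRNAs.

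Of the mRNAs for mitochondrial functions encoded in the nucleus, many were lower too, beside 43.2% lower and 17.6% higher among all mRNAs. In the citric acid cycle 11 of 13 mRNAs were lower and 0 higher, with the same counts by DESeq2 and without adjustment (median −0.63), in the respiratory chain 15 of 23 lower and 2 higher (−0.62), and among mitochondrial ribosomal proteins 18 of 27 lower and 1 higher (−0.59). For mitochondrial protein import 8 of 14 were lower and 1 higher (−0.56). LPD1, the dihydrolipoamide dehydrogenase, had 123, 116 and 177 CPM in the mutant cytoplasm and 256, 386 and 293 CPM in mutant total (−1.17 ± 0.21). The NADH dehydrogenases went apart, since NDE1 fell by 1.19 (adjusted p = 0.00129) and NDE2 had 9.90, 11.4 and 10.3 CPM in the cytoplasm and 6.57, 8 and 5.96 CPM in total (0.62 ± 0.15). In wild type the list medians were −0.24, −0.23, −0.29 and −0.09 in the order above. The ratio was lower in the mutant than in wild type for 0, 1, 0 and 2 members (2, 6, 7 and 6 without adjustment). It was higher for 0 of each (0, 0, 1 and 0 without adjustment), beside 9.42% lower and 3.73% higher of all mRNAs.

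In protein quality control, 13 of 18 proteasome mRNAs were lower and 1 higher with a median of −0.48, and 15 of 32 mRNAs of heat shock proteins and chaperones were lower and 3 higher with a median of −0.41, beside 43.2% lower, 17.6% higher and a median of −0.28 over all mRNAs. RPN4, the transcription factor of proteasome genes, was the one that rose, with 509, 429 and 442 CPM in the mutant cytoplasm and 331, 297 and 346 CPM in mutant total (0.50 ± 0.14, adjusted p = 0.0129). In wild type the proteasome list had nearly the same median (−0.50), with 13 of 18 lower.

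Transport through the nuclear pore was represented by 19 mRNAs of pore proteins and karyopherins, of which 12 were lower and 0 higher (median −0.47), and by 13 mRNAs of mRNA export factors and adaptors, of which 5 were lower and 0 higher (median −0.18), beside 43.2% lower, 17.6% higher and −0.28 over all mRNAs. At an unadjusted p under 0.05, 1 of the 19 and 0 of the 13 were higher, and by DESeq2 0 of both. RNA1, the GTPase activating protein of Ran, had 43.5, 32.5 and 48.9 CPM in the mutant cytoplasm and 104, 102 and 92.2 CPM in mutant total (−1.26 ± 0.16). CBC2, the small subunit of the nuclear cap-binding complex and the lowest of the export list, had 22.7, 18.4 and 20.5 CPM in the cytoplasm and 45.1, 40.6 and 41.5 CPM in total (−1.05 ± 0.12). In wild type the medians were −0.16 for the pore list and −0.26 for the export list. The ratio was lower in the mutant than in wild type for 1 of the 19 and 0 of the 13 (6 and 1 without adjustment). It was higher for 0 of both, also without adjustment, beside 9.42% lower and 3.73% higher of all mRNAs.

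Few lists held more higher than lower members, beside 17.6% higher and 43.2% lower among all mRNAs. In meiosis and sporulation 25 of 37 tested mRNAs were higher and 2 lower, with a median of 0.67, and 6 further members that could be read were not tested. MAM1, which links sister kinetochores in meiosis, had 11.5, 10.5 and 7.17 CPM in the mutant cytoplasm and 1.75, 1.81 and 2.54 CPM in mutant total (2.25 ± 0.24). SPO12 was an exception with 20.4, 14.2 and 18.5 CPM in the cytoplasm and 32.4, 34.6 and 31.2 CPM in total (−0.89 ± 0.14). The list is weakly expressed, with a median of 1.98 RPKM in wild type total, and intergenic features, of which 56.9% were higher, moved in the same direction. The part of such background in the result was not tested. In wild type 15 of 31 members were higher and 0 lower (2 at an unadjusted p under 0.05) with a median of 0.55.

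Cell wall, iron and sugar uptake genes were split, with medians above that of all mRNAs (−0.28). Among all mRNAs 17.6% were higher and 43.2% lower. Of 67 cell wall mRNAs 24 were higher and 16 lower (median 0.05), of 18 iron uptake mRNAs 7 were higher and 3 lower (0.05), of 15 hexose transporters and sugar sensors 5 were higher and 2 lower (0.13), and of 22 peroxisome mRNAs 6 were higher and 6 lower (0.07). HPF1, a glycoprotein of the cell wall, had 417, 551 and 545 CPM in the mutant cytoplasm and 114, 193 and 143 CPM in mutant total (1.75 ± 0.21, adjusted p = 0.000279). FRE5, a putative ferric reductase, had 11.2, 11.3 and 9.56 CPM in the cytoplasm and 3, 4.42 and 4 CPM in total (1.49 ± 0.18), the opposite of FRE1. Among the sugar transporters HXT13 (1.58) was higher and HXT4 (−1.09) lower. Stress and storage genes were likewise split, with CTA1 and GLC3 at the ends of a list of 26, of which 10 were higher and 9 lower (median −0.12).

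**Figure D3:**
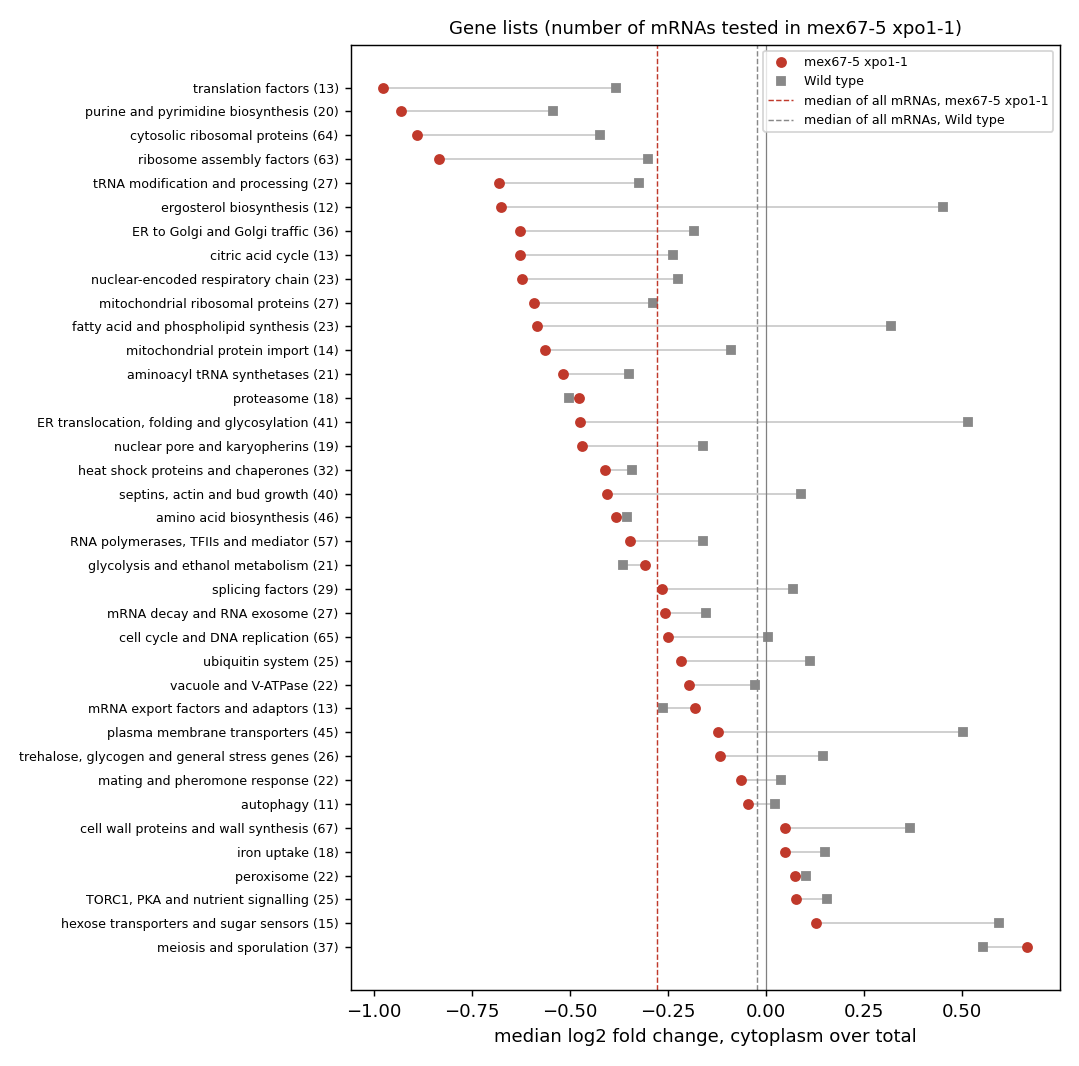
Median log2 fold change of cytoplasm over total for gene lists with at least 5 tested mRNAs (number in brackets), for mex67-5 xpo1-1 (red circles) and wild type (grey squares), with dashed lines at the medians of all mRNAs. The mitochondrially encoded mRNAs, the strain markers and the genes examined singly by the study are not drawn. The cytosolic ribosomal proteins lay at −0.89 in the mutant and −0.42 in wild type, and the list of ER translocation, folding and glycosylation at −0.47 and 0.52.

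Of the genes that the study examined singly, 4 of 11 were higher in the mutant cytoplasm and 4 lower, beside 17.6% and 43.2% of all mRNAs. This list was chosen by the study partly on such samples, so that its direction is no independent evidence. HPF1, FRE5, PRY3 (0.94), a secreted sterol-binding protein, and YIL169C (0.89) were the higher ones, and NOP1, RPS17A (−0.95), HEM15 (−0.78), the ferrochelatase, and RPS6A (−0.77) the lower ones. PHO85, a cyclin-dependent kinase of the phosphate response, overlapped between the fractions, with 33.7, 32.5 and 41 CPM in the cytoplasm and 33.2, 38.5 and 30.0 CPM in total (0.08 ± 0.14, adjusted p = 0.650). TDH1 (−0.10) and ZWF1 (−0.03) did not pass the test.

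The ratio differed from wild type for many mRNAs of the endoplasmic reticulum (ER). Proteins enter the ER through the Sec61 channel, to which their mRNAs are brought during translation when the nascent chain shows a hydrophobic signal. Of 41 mRNAs for ER translocation, folding and glycosylation, 3 were higher and 23 lower in the mutant cytoplasm (median −0.47), whereas 22 were higher and 5 lower in the wild type cytoplasm (median 0.52). The ratio was lower in the mutant than in wild type for 24 of the 41 and higher for 0 (32 and 0 at an unadjusted p under 0.05), beside 9.42% and 3.73% of all mRNAs, with a median difference of −0.80. Membrane lipid synthesis showed a similar pattern. Of 12 ergosterol mRNAs 5 had a lower ratio in the mutant and 0 a higher one, or 8 and 1 at an unadjusted p under 0.05 (median −0.68 in the mutant and 0.45 in wild type), and of 23 mRNAs of fatty acid and phospholipid synthesis 10 had a lower and 2 a higher one (−0.58 and 0.32).

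Some members are given library by library here and in the next paragraph. Apart from ERO1 and ERG25, they were chosen after their values were seen. All CPM of both paragraphs come from the scaling over all 12 libraries. SEC63, a subunit of the translocation machinery, had 60.3, 60.6 and 63.4 CPM in the mutant cytoplasm and 112, 114 and 116 CPM in mutant total. In wild type SEC63 had 305, 199 and 302 CPM in the cytoplasm and 194, 173 and 202 CPM in total, where the cytoplasmic libraries were the higher ones apart from replicate 2, which lay within the range of total. The difference between the strains was −1.39 ± 0.21 (adjusted p = 0.00271). SEC61, the channel itself, had 126, 126 and 167 CPM in the mutant cytoplasm and 122, 149 and 136 CPM in mutant total. Its wild type values were 398, 252 and 354 CPM in the cytoplasm and 194, 162 and 169 CPM in total, so that the fractions were separated in wild type and overlapped in the mutant (difference −0.89 ± 0.25, adjusted p = 0.0367).

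Other members differed in the same direction. PMT3, a protein mannosyltransferase, had 17.1, 16.1 and 22.2 CPM in the mutant cytoplasm and 27.8, 37.7 and 34.6 CPM in mutant total. In wild type PMT3 had 132, 104 and 159 CPM in the cytoplasm and 70.9, 65.7 and 78.8 CPM in total (difference −1.73 ± 0.25, adjusted p = 0.00254). ERO1, the oxidase that drives disulfide formation in the ER, was higher in the cytoplasm of both strains, but less so in the mutant. It had 181, 193 and 223 CPM in the mutant cytoplasm and 126, 127 and 146 CPM in mutant total. In wild type it had 229, 254 and 320 CPM in the cytoplasm and 111, 102 and 117 CPM in total (difference −0.70 ± 0.20, adjusted p = 0.0446). ERG25, an enzyme of ergosterol synthesis in the ER membrane, had a difference of −1.42 (adjusted p = 0.0258).

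To describe this beyond the annotated list, mRNAs were grouped by the hydropathy of the encoded protein. An N-terminal stretch was called where a window of 11 residues between residues 2 and 35 had a mean Kyte-Doolittle value of at least 1.8, and a later stretch where a window of 19 residues from residue 41 on reached 1.6. The coding starts of 6 mRNAs of the N-terminal group are shown because the stretch is written in their first 35 codons, with the most hydrophobic window of 11 codons in capitals. They are the 4 most abundant mRNAs of the group with a lower ratio in the mutant, namely YGP1, YNL190W, VOA1 and PST1, followed by ERO1 and SEC63. In R64 they start at chrXIV:336545-336649 (plus), chrXIV:282395-282499 (plus), chrVII:699682-699786 (minus), chrIV:563527-563631 (plus), chrXIII:13070-13174 (minus) and chrXV:806919-807023 (minus).
YGP1: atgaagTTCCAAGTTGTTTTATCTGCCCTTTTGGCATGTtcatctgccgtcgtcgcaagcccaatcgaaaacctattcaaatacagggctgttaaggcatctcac
YNL190W: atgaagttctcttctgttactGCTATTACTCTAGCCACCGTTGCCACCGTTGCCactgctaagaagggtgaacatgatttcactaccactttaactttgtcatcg
VOA1: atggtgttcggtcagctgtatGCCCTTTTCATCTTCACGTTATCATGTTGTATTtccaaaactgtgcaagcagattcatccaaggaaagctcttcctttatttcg
PST1: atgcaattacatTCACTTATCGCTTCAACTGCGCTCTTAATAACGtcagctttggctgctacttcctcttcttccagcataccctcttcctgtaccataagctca
ERO1: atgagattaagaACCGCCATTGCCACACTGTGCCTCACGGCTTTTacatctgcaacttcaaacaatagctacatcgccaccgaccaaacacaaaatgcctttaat
SEC63: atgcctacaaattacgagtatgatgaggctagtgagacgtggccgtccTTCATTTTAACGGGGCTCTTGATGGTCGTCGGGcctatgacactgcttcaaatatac
The mean hydropathy of the window was 2.22 in YGP1, 1.98 in YNL190W, 2.5 in VOA1 and SEC63, 1.91 in PST1 and 1.88 in ERO1. In SEC63 the window spans residues 17 to 27, further from the start than in the other 5.

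The mRNAs with a hydrophobic stretch had a lower ratio in the mutant than in wild type more often than those without. In the group with an N-terminal stretch the ratio was lower for 79 of 293 mRNAs (27.0%) and higher for 14, with a median difference of −0.40. With a later stretch it was lower for 90 of 506 (17.8%) and higher for 17 (median −0.28), and with neither it was lower for 50 of 1523 (3.28%) and higher for 56 (median −0.15). Within the mutant the 3 groups lay closer to each other than in wild type, but the group with neither stretch was still the lowest. In the mutant cytoplasm 34.2, 35.2 and 47.8% of the groups were lower and 20.8, 21.9 and 15.4% higher. Their medians of cytoplasm over total were −0.16, −0.13 and −0.35, whereas in wild type they were 0.31, 0.19 and −0.17. YNL190W, a cell wall protein and the second of the coding starts above, had 556, 550 and 478 CPM in the mutant cytoplasm and 546, 422 and 463 CPM in mutant total. In wild type YNL190W had 1600, 1430 and 1610 CPM in the cytoplasm and 432, 469 and 484 CPM in total (difference −1.6 ± 0.20, adjusted p = 0.00151).

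The pattern was present over most of the range of expression. When mRNAs were divided into quintiles by RPKM in wild type total, the share with a lower ratio in the mutant was 28.6, 40.9, 47.0 and 25.8% from the lower to the higher of the upper 4 quintiles for mRNAs with an N-terminal stretch, and 3.57, 4.47, 3.44 and 2.47% for those with neither stretch. In the lowest quintile the shares were 1.37% and 2.33%. With library totals as the scale the share was 13.3% for the N-terminal group, 8.5% for the later group and 0.46% for the others, and 15 of the 41 ER mRNAs were lower. When each of the 12 libraries was left out in turn, the shares were 14 to 35.7%, 7.91 to 26.1% and 0.592 to 8.33%, and 14 to 30 of the ER mRNAs were lower. Without mutant cytoplasm replicate 1 they were 14%, 7.91% and 0.788%, and without wild type cytoplasm replicate 2 they were 35.7%, 26.1% and 8.33%. These alternatives were chosen after seeing the data. In each of them the N-terminal group had the largest share and the group with neither stretch the smallest.

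**Figure D4:**
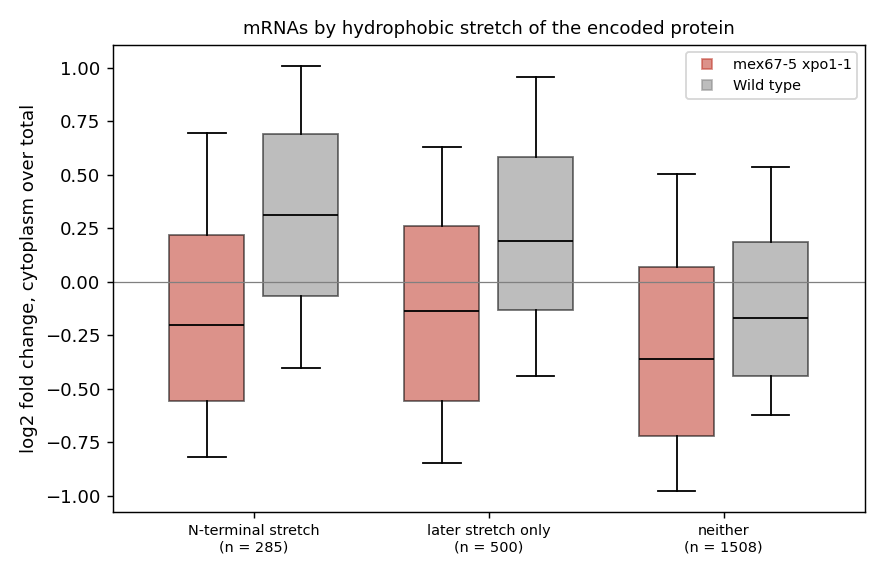
Log2 fold change of cytoplasm over total for mRNAs with an N-terminal hydrophobic stretch, a later stretch only or neither (285, 500 and 1508 mRNAs tested in both strains), in mex67-5 xpo1-1 (red) and wild type (grey). Boxes show the quartiles and the median, and whiskers the 10 and 90% points. In wild type the groups with a stretch lay above the third group, and in the mutant the 3 groups lay closer together.

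Genes at the cell surface differed between the strains as well. Of 45 plasma membrane transporters 12 were higher and 12 lower in the mutant cytoplasm (median −0.12), beside 17.6% and 43.2% of all mRNAs. In wild type 21 were higher and 2 lower (median 0.50), and the ratio was lower in the mutant for 10 and higher for 1, beside 9.42% and 3.73% of all mRNAs. PTR2, a peptide transporter, had 343, 400 and 404 CPM in the mutant cytoplasm and 472, 600 and 514 CPM in mutant total. In wild type PTR2 had 264, 218 and 257 CPM in the cytoplasm and 116, 174 and 154 CPM in total (difference −1.20 ± 0.23, adjusted p = 0.00742). HSP30, a stress-induced protein of the plasma membrane, had 2500, 2440 and 2900 CPM in the mutant cytoplasm and 1670, 1350 and 1010 CPM in mutant total. Its wild type values spread widely, with 741, 4970 and 2690 CPM in the cytoplasm and 171, 399 and 189 CPM in total (difference −2.51 ± 0.70, adjusted p = 0.0382).

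Antisense RNAs were enriched in the mutant cytoplasm. Of 1498 antisense RNAs of mRNAs 887 (59.2%) were higher and 74 (4.94%) lower, with a median of 0.74, beside 30.0 and 28.7% of all features. The median log2 CPM per library was 2.03, 2.07 and 1.83 in the cytoplasm and 1.41, 1.10 and 1.34 in total, so that the groups did not overlap (difference 0.69, p = 0.1 in the exact permutation test, its lowest value). Genes with an annotated lncRNA on the antisense side had 417 of 785 higher and 35 lower (median 0.60), and genes without had 470 of 713 higher and 39 lower (median 0.97). Intergenic features, of which 403 of 708 were higher and 68 lower, had a median of 0.84, and their part in the antisense counts was not tested. Antisense RNAs kept a positive median under all scalings tried.

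The largest increases were those antisense to CDC60, YKL115C, AKR2, RDS2 and UAF30, and all had low levels in total. The RNA antisense to CDC60, a leucyl-tRNA synthetase gene, had 7.94, 8.52 and 6.18 CPM in the mutant cytoplasm and 1.21, 0.978 and 1.28 CPM in mutant total (2.70 ± 0.21, adjusted p = 7.4e-05). The RNA antisense to AKR2, a gene of a palmitoyltransferase family, had 15.3, 17.2 and 11.1 CPM in the cytoplasm and 1.75, 2.72 and 2.78 CPM in total (2.58 ± 0.23). Both were similarly enriched in wild type (2.62 and 3.01). Of the 5 largest decreases 4 were antisense to the mitochondrial genes COX2 (−3.51), AI2 (−3.13), AI1 (−2.85) and COX1 (−2.29). AI1, AI2 and COX1 are nested features on the same strand with the same start, so that they share counts and are a single locus. The remaining one was antisense to the Ty element gene YML045W-A (−2.43). The counts antisense to COX1 were few, with 2.29, 1.97 and 0.786 CPM in the mutant cytoplasm. The opposite feature, from which COX1 was read, had 4680, 4810 and 2490 CPM there. Its fold change (−2.24) was near that of the antisense side, whereas COX2 (−1.13) differed from its antisense side. The part of reads of abundant mitochondrial RNAs placed on the wrong strand was not tested.

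**Figure D5:**
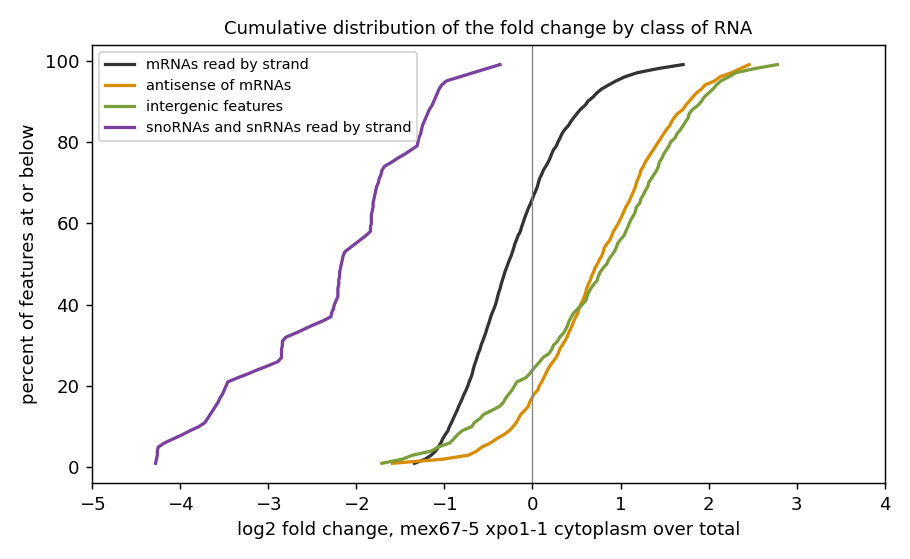
Cumulative distribution of the log2 fold change of mutant cytoplasm over mutant total for 4 classes of RNA. The medians were −2.17 for snoRNAs and snRNAs, −0.28 for mRNAs, 0.74 for antisense RNAs and 0.84 for intergenic features.

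The fold change of an antisense RNA showed hardly any rank correlation with that of its mRNA. In 588 genes both strands were tested, and across these genes the Spearman correlation of the fold changes was 0.013. In 98 of them the antisense RNA was higher and the mRNA lower, in 78 both were higher, in 11 both lower, and in 4 the antisense RNA was lower and the mRNA higher. The antisense value lay above that of the mRNA in 461 of the 588. In wild type 355 of 913 antisense RNAs (38.9%) were higher and 36 lower (median 0.50). The ratio was higher in the mutant than in wild type for 34 of 1308 (2.6%) and lower for 22 (1.68%), 4.28% in all. Over all features it was higher for 4.57% and lower for 5.68%, 10.2% in all. Many antisense RNAs have low counts, and the part of this in their smaller share was not tested.

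Abundance and length of the mRNA went along with the fold change. From the lowest to the highest quintile of RPKM in wild type total, the median in the mutant was 0.24, −0.14, −0.27, −0.40 and −0.69, and the share of mRNAs lower in the cytoplasm was 13.4, 33.8, 44.0, 53.2 and 71.5%. Over 2352 mRNAs the Spearman correlation with RPKM was −0.49, with length 0.24 and, over 2336, with GC content −0.0032, given as descriptions across genes. From the shortest to the longest quintile the medians were −0.52, −0.37, −0.33, −0.14 and −0.01. Wild type showed both relations too, with correlations of −0.33 with RPKM and 0.43 with length over 2303 mRNAs. Its medians from the lowest to the highest RPKM quintile were 0.215, 0.03, 0.01, −0.10 and −0.36. From the shortest to the longest quintile they were −0.35, −0.21, −0.08, 0.11 and 0.33. The share of intergenic counts was higher in the cytoplasm, and its part in the values of weakly expressed mRNAs was not tested. Outside the ribosomal proteins 33 of 60 mRNAs with an intron were lower and 9 higher (median −0.46), and 922 of 2228 without an intron were lower and 405 higher (median −0.25).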

How the data were processed

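RNA-seq libraries of total lysate and of cytoplasm from mex67-5 xpo1-1 and wild type cells were used, 3 each. The authors aligned reads to sacCer3 with STAR (version 2.5.2a), counted them with featureCounts (version 1.5.0-p1) and deposited raw counts for 20619 features per library. Features that overlap on a strand share reads. From these counts, fits were made with edgeR (version 4.0.16) in R (version 4.3.3). The quasi-likelihood test was used with TMM scaling, a mean count above 40 over the libraries of the fit, Benjamini-Hochberg adjustment over all features tested and a threshold of 0.05. The strains were compared by the interaction of strain and fraction over 12 libraries. Errors are SE of the log2 fold change. Replicates were described as independent, and n was 3 per group. DESeq2 (version 1.42.0), other scalings, filters, strand rules and left-out libraries were alternatives. The scripts were tested on simulated data.

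The members and lists were chosen with earlier results of these data known. Named were the 12 mRNAs (mean count of at least 200) and 5 antisense RNAs (at least 100) with the largest increase and decrease among called ones without overlap, the 8 with the highest RPKM, list extremes, all snoRNAs and snRNAs tested, and the genes of 2 small lists, where exceptions are stated. The text gives a selection of these. The 43 gene lists are reported through their counts, their members or in the plot of list medians. Lists with fewer than 5 tested members are left out of the plot. So are the mitochondrially encoded mRNAs, the strain markers and the genes examined singly. Genome sequences were read from RefSeq R64. Intervals for counting error are not given.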

Additional observations from a re-analysis of the deposited data

Results flagged for a closer look

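For 25 of the named RNAs the ratio of cytoplasm over total differed between mex67-5 xpo1-1 and wild type by the interaction test (edgeR, Benjamini-Hochberg over 13145 features, of which 10.2% passed), and all values are log2 differences of mutant minus wild type, with the adjusted p. The part of the strain differences in mating type genes and markers in these values was not tested.

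A higher ratio in the mutant was found for genes of several functions. The largest differences were those of SLZ1 (2.25, adjusted p = 0.0189), ECI1 (2.10, adjusted p = 0.00318), YHR177W (1.79, adjusted p = 0.0115), STB5 (1.69, adjusted p = 0.000725) and DAK2 (1.5, adjusted p = 0.00518). STB5 had 95.4, 108 and 93.7 CPM in the mutant cytoplasm and 18.9, 21.8 and 23.3 CPM in mutant total, and in wild type 25.5, 22.3 and 24.5 CPM in the cytoplasm and 18.6, 16.2 and 15.5 CPM in total. Metabolic genes in this direction were UGA4 (1.28, adjusted p = 0.0213), a GABA permease, HOM3 (1.01, adjusted p = 0.0104), the aspartate kinase, RNR3 (0.92, adjusted p = 0.0215) and TRP1 (0.70, adjusted p = 0.0184), which is also the marker of the mutant. HOM3 had 213, 260 and 261 CPM in the mutant cytoplasm and 101, 97.1 and 116 CPM in mutant total, and in wild type 108, 111 and 101 CPM in the cytoplasm and 109, 74.2 and 92.1 CPM in total. The others were the ferric reductase homologue FRE5 (1.20, adjusted p = 0.0418), YMR317W (1.12, adjusted p = 0.0493), the regulator of phospholipid synthesis INO2 (1.07, adjusted p = 0.0378), FAF1 (1.06, adjusted p = 0.0140), the splicing factor PRP3 (0.97, adjusted p = 0.00725), the RNase P subunit POP7 (0.72, adjusted p = 0.0330) and the mediator subunit SOH1 (0.56, adjusted p = 0.0458).

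A lower ratio in the mutant was found for HSP30 (−2.51, adjusted p = 0.0382), ERG25 (−1.42, adjusted p = 0.0258), PTR2 (−1.20, adjusted p = 0.00742) and ERO1 (−0.70, adjusted p = 0.0446), whose levels are given in the report. ERG25 had 185, 181 and 276 CPM in the mutant cytoplasm and 357, 346 and 306 CPM in mutant total, and in wild type 816, 378 and 714 CPM in the cytoplasm and 433, 288 and 396 CPM in total. The others were the condensin subunit YCS4 (−1.15, adjusted p = 0.0361), the mannosyltransferase MNT2 (−0.93, adjusted p = 0.0297), the peroxisomal membrane protein PEX32 (−0.91, adjusted p = 0.00477), the ribosome rescue factor DOM34 (−0.64, adjusted p = 0.0468) and the RNA antisense to COX2 (−1.53, adjusted p = 0.0343).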

How the results depend on the processing

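The split of the mRNAs depended most on scaling. With TMM from mRNAs the shares higher and lower were 29.9 and 27.4% (median −0.012), with library totals 40.3 and 10.9% (0.22) and with mitochondrial scaling 78.2 and 0.0425% (1.34). The features that bear the genes' own names gave 38.2 and 21.7% (0.22, 5052 genes). Antisense RNAs are read from such features here, so that these shares are not another measure of the mRNAs. A fold change of at least 1.5 left 11% higher. The median was −0.21 with a mean count above 100, −0.34 without a filter and −0.22 with any opposite feature. For antisense RNAs the median was 1.00, 1.24 and 2.34 in the order of the 3 scalings, with 2.47, 1.67 and 0.267% lower, and 97.3% higher with the mitochondrial one. It was 0.88 with a mean count above 100 and 0.57 without a filter, and the share lower was 3.29% where the own feature held at least 10% of the opposite one and 2.67% at an adjusted p under 0.01. Relative to the shift of all features, the medians of all 40 lists stayed within the spread of libraries under TMM from mRNAs and library totals. These scalings move all features by nearly the same amount, so that they could hardly reorder the lists. Other settings can, and 39 list medians moved without a filter, 38 with a mean count above 100 and 30 with any opposite feature.

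With each mutant library left out, the mRNAs were 14.7 to 17.4% higher and 34.1 to 46.0% lower (median −0.31 to −0.22), and the antisense RNAs 49.3 to 60.6% higher and 3.19 to 4.97% lower (median 0.69 to 0.83). The lowest antisense share, 3.19%, was that without total replicate 1. Of the 188 named RNAs, 21 lost and 9 gained a call in at least 1 of these settings, and 0 changed direction. Of all features 601 had a higher and 746 a lower ratio in the mutant than in wild type, which became 1364 and 290 with library totals. Leaving out each of 12 libraries gave 318 to 841 higher and 329 to 1121 lower. The higher count moved over 1.5 times without wild type cytoplasm replicate 3 (318), wild type total replicate 3 (342), mutant cytoplasm replicate 2 (397), or mutant total replicates 1 (373) or 2 (396). The lower count did so without wild type cytoplasm replicates 2 (1121) or 3 (381), wild type total replicates 2 (444) or 3 (420), mutant cytoplasm replicates 1 (329) or 2 (364), or mutant total replicates 1 (495) or 3 (494). The cause was not tested.

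By the study's methods, part of the shifted culture was lysed as total and cells were then fractionated, so that the fractions may be paired. The main fits were unpaired. Same-numbered deviations from the group means correlated at 0.38, −0.36 and −0.21 in the mutant. With 3 libraries per group such values cannot show whether the replicate numbers pair the fractions. With a replicate block 15.8% of the mRNAs were higher and 39.2% lower (median −0.28), and 54.3 and 4.01% of the antisense RNAs (median 0.74). With the block within strains 636 features had a higher and 901 a lower ratio in the mutant.

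With 3 libraries per group an exact permutation test cannot go below p = 0.1, and weakly expressed RNAs, such as those antisense to mRNAs, rest on few counts.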

Other observations

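Of 65 cell wall mRNAs 14 had a lower and 5 a higher ratio in the mutant than in wild type. The 5 higher ones, named after their values were seen, were CTS1, DSE2, DSE4, EGT2 and KNH1. The endochitinase CTS1 had 401, 658 and 529 CPM in the mutant cytoplasm and 252, 331 and 242 CPM in mutant total. In wild type CTS1 had 158, 180 and 213 CPM in the cytoplasm and 331, 241 and 264 CPM in total, so that the fractions were separated in opposite directions. The difference between the strains was 1.55 ± 0.28 (edgeR interaction test, adjusted p = 0.00600). The glucanase-related DSE2 had 164, 308 and 217 CPM in the mutant cytoplasm and 132, 170 and 132 CPM in mutant total, against 71.9, 64.2 and 82.6 CPM in the wild type cytoplasm and 171, 110 and 132 CPM in wild type total (difference 1.58 ± 0.31, adjusted p = 0.00827). The differences of DSE4, KNH1 and EGT2 were 1.07 (adjusted p = 0.0183), 0.98 (adjusted p = 0.0130) and 0.98 (adjusted p = 0.0362). All 5 encode an N-terminal hydrophobic stretch, a group in which the ratio was lower in the mutant for 79 of 293 mRNAs and higher for 14. Cytoplasm replicate 2 was the highest of the mutant libraries for CTS1, DSE2, DSE4 and EGT2.

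YHR177W and STB5, which were both among the 12 largest increases, are neighbours on the plus strand of chromosome VIII. In the coordinates of the deposited annotation YHR177W spans 456544 to 458532 and STB5 459232 to 461884, and each was read from its own opposite-strand feature (456144 to 458516 and 459232 to 460734).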
